A study of Bos taurus with 41 samples.

Results

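The transcripts described here are 47 genes of the bovine cell cycle and of mitosis, chosen by symbol from a list. No filter on a measured value was used, but the list was chosen with earlier results of these data known. All 47 were found in the table of 16149 genes counted in conceptus tissue, and all 47 were among the 15942 genes that passed the filter on low counts. In the endometrial table of 27270 genes 46 were found, and MAD2L1 was not analysed there. By role, 6 act at the entry into S phase, 10 at replication origins and forks, 2 in nucleotide supply, 9 at the entry into mitosis, 10 at the kinetochore, its checkpoint and the chromosomal passenger complex, 2 at anaphase, 6 in the spindle and cytokinesis, and 2 on the mitotic chromosome.

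Dividing cells pass from G1 to S phase when cyclin D and cyclin E with their kinases release E2F transcription factors, which switch on the genes of DNA replication. Entry into mitosis follows when CDC25 phosphatases activate cyclin-dependent kinase 1, and FOXM1 drives transcription of many genes of G2 and M phase. Transcripts of most of these genes are high in cycling cells and low in resting cells. In cattle, the trophectoderm of the conceptus grows and elongates into a filament in the days before implantation.

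Conceptuses were collected on Day 16 of gestation. In vivo derived (IVD) conceptuses came from artificial insemination, and in vitro produced (IVP) conceptuses were blastocysts made in culture and transferred to recipients. Sections were held for 12 h in RPMI medium, either with an explant of intercaruncular endometrium from a cyclic heifer (co-culture) or alone (mono-culture). The groups were IVP co-culture (7 libraries), IVP mono-culture (5), IVD co-culture (9) and IVD mono-culture (8), with 12 libraries of endometrium that had been cultured with IVP conceptus. These numbers follow the sample titles, while the extraction protocol counts 7 IVD and 7 IVP mono-cultures, and which library accounts for the difference is not known. No group held tissue taken before culture, so every library carries the 12 h in medium. Sections of 13 conceptuses made up the 29 libraries, and 11 of the conceptuses (7 IVD and 4 IVP) were sampled in co-culture as well as alone. Co-culture libraries represented 7 IVD and 4 IVP conceptuses, because 5 conceptuses gave 2 co-culture sections each. P-values over libraries therefore measure a spread that is partly between sections of one conceptus, and for IVP against IVD they are too small.

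Conceptus libraries held between 58583647 and 104436922 reads assigned to genes, and endometrial libraries between 24593699 and 84030248. The lowest count of a member in a conceptus library was 16 and none was 0, so counting error was small beside the spread between libraries. The tissue label was checked on marker genes given in CPM, counts scaled to a common library size. All 14 trophoblast markers were in the conceptus table, and their summed level lay between 5710 and 109000 CPM in conceptus libraries, against 223 to 1190 CPM for the 12 in the endometrial table. The 5 stromal markers summed to 8.51 to 162 CPM in conceptus libraries and 2970 to 14200 CPM in endometrium. In bulk tissue, fewer cells of a type and less RNA per cell cannot be told apart.

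In IVD conceptuses, co-culture was compared with mono-culture to ask how contact with endometrium altered conceptus transcripts. CDC25A, CDC25C, FOXM1, CENPE and MKI67 were lower in co-culture, by factors of 0.42 to 0.738, and no member was higher. These 5 were 10.6% of the 47 members, while 3.22% of all genes tested were lower and 3.11% were higher (false discovery rate, FDR, of 0.05 in edgeR's quasi-likelihood test with Benjamini-Hochberg adjustment, as for every adjusted p below unless an exact test is named). The median log2 fold change was -0.21 over the 47 members and -0.02 over all genes, with 33 members negative and 14 positive. By median log2 fold change the roles ran from -0.47 for anaphase and -0.35 for the spindle and cytokinesis to -0.08 for replication origins and forks.

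**Figure D1:**
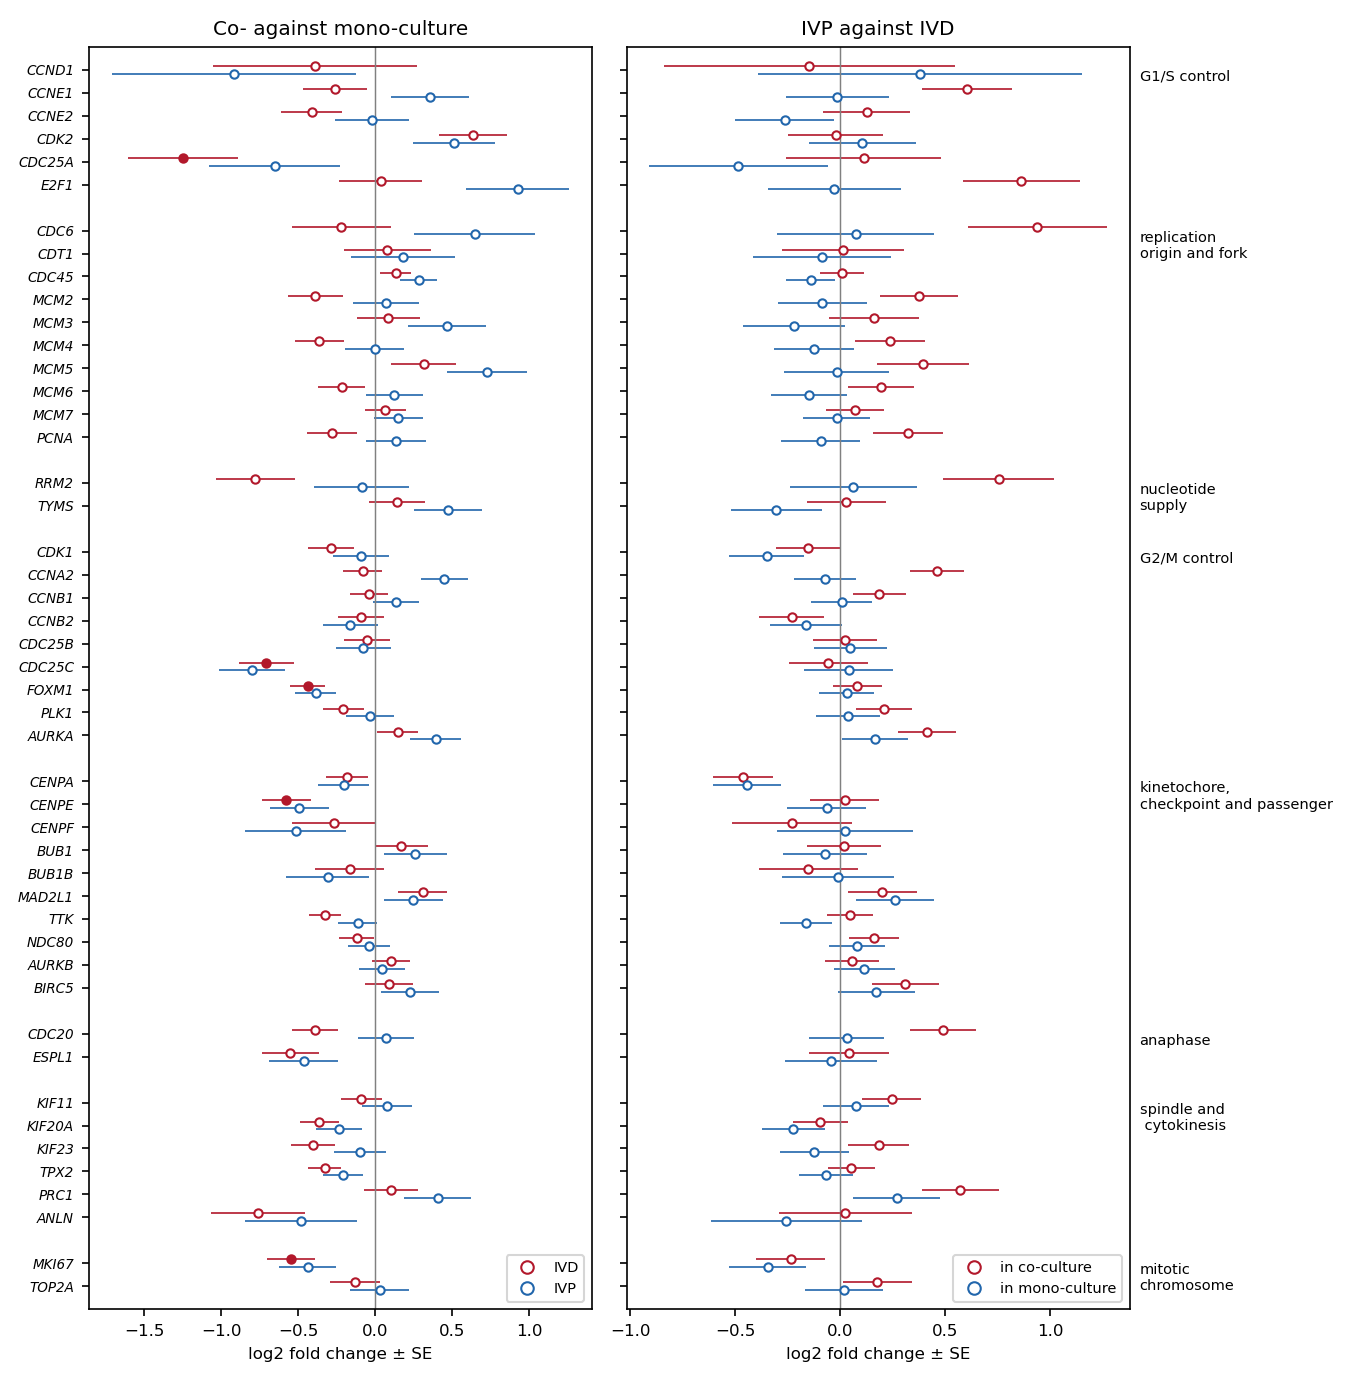
Log2 fold changes of the 47 members, grouped by role, from the edgeR model. The left panel shows co- against mono-culture in IVD conceptuses (red) and IVP conceptuses (blue), and the right panel shows IVP against IVD conceptuses in co-culture (red) and in mono-culture (blue). Bars are SE and filled points passed the FDR of 0.05, which 5 members did in IVD tissue and none in the other 3 comparisons shown.

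Among the genes of entry into mitosis, CDC25C encodes the phosphatase that removes the inhibitory phosphates of CDK1. It had 10.8, 12.9 and 16.3 CPM (lowest, median and highest) in IVD co-culture, against 17.1, 19.9 and 33.8 CPM in IVD mono-culture. The groups did not overlap, and the log2 fold change was -0.71 (SE 0.18, adjusted p = 0.0236). Over all genes tested, 1.11% had IVD co- and mono-culture libraries that did not overlap, and CDC25C and MKI67 were the 2 members that did so. FOXM1, the forkhead transcription factor of G2 and M phase genes, had 11.8, 17.4 and 19.8 CPM in IVD co-culture and 18.3, 22.5 and 32.2 CPM in IVD mono-culture. Its groups overlapped in a narrow range, and it was lower by a log2 fold change of -0.44 (SE 0.11, adjusted p = 0.0241).

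The kinase and cyclins that these regulators serve did not pass the test. CDK1, the mitotic kinase, had 48.0, 67.8 and 79.7 CPM in IVD co-culture and 65.2, 77.0 and 100.1 CPM in IVD mono-culture, with a log2 fold change of -0.29 (SE 0.15, adjusted p = 0.245). CCNB1, its cyclin B1 partner, had 84.0, 114 and 148 CPM in IVD co-culture and 102, 120 and 136 CPM in IVD mono-culture (log2 fold change -0.04, SE 0.12, adjusted p = 0.874). CDC25B, the phosphatase thought to start CDK1 activation at the centrosome, had 13.7, 16.1 and 19.3 CPM in IVD co-culture and 10.2, 18.1 and 24.2 CPM in IVD mono-culture (log2 fold change -0.05, SE 0.15, adjusted p = 0.87). The 3 CDC25 phosphatases thus had unlike log2 fold changes, with CDC25A and CDC25C past the threshold and CDC25B near 0. The difference between these genes was not tested.

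At the kinetochore, CENPE is the motor that carries chromosomes to the spindle equator. It had 25.3, 37.0 and 55.4 CPM in IVD co-culture and 41.1, 54.1 and 87.1 CPM in IVD mono-culture. The groups overlapped, and CENPE was lower by a log2 fold change of -0.58 (SE 0.16, adjusted p = 0.0316). TTK, the checkpoint kinase also called MPS1, had 18.8, 24.0 and 31.4 CPM in IVD co-culture and 24.0, 30.8 and 37.1 CPM in IVD mono-culture, and its log2 fold change of -0.32 (SE 0.10) missed the threshold (adjusted p = 0.0573). MAD2L1, which holds back anaphase by binding CDC20, had the opposite sign, at 117, 183 and 281 CPM in IVD co-culture and 118, 143 and 219 CPM in IVD mono-culture (log2 fold change 0.31, SE 0.16, adjusted p = 0.243). Members of the same checkpoint therefore stood on both sides of 0, and in this test only CENPE among the 10 of its role passed.

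On the mitotic chromosome, MKI67 encodes the Ki-67 protein used in histology to mark cycling cells. It had 68.4, 147 and 173 CPM in IVD co-culture, against 177, 197 and 276 CPM in IVD mono-culture. The groups did not overlap, and the log2 fold change was -0.55 (SE 0.16, adjusted p = 0.0358). TOP2A, the topoisomerase that untangles chromosomes, is another common proliferation marker, and its 114, 200 and 279 CPM in IVD co-culture overlapped broadly with the 188, 214 and 304 CPM in IVD mono-culture. Its log2 fold change was -0.13 (SE 0.16, adjusted p = 0.668).

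Of the genes of S phase entry, CDC25A encodes the phosphatase that activates CDK2. It had 9.19, 23.5 and 61.8 CPM in IVD co-culture and 25.0, 48.2 and 153 CPM in IVD mono-culture. The groups overlapped, and 1 library of each stood well above the next (31.2 and 71.8 CPM). The log2 fold change of -1.25 (SE 0.36, adjusted p = 0.037) was the most negative of the members. CDK2, the kinase of S phase entry itself, had the most positive log2 fold change at 0.63 (SE 0.22, adjusted p = 0.0765), with 63.2, 80.3 and 140 CPM in IVD co-culture and 48.0, 56.3 and 86.8 CPM in IVD mono-culture. CCND1, cyclin D1, was low and scattered in both groups, with 0.484, 4.93 and 10 CPM in IVD co-culture and 0.183, 4.35 and 13.6 CPM in IVD mono-culture (log2 fold change -0.39, SE 0.66, adjusted p = 0.774).

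Both anaphase genes and 5 of the 6 spindle genes had negative log2 fold changes that did not pass the test. CDC20, the activator of the anaphase-promoting complex, had 62.1, 77.7 and 109 CPM in IVD co-culture and 78.5, 104 and 151 CPM in IVD mono-culture (log2 fold change -0.39, SE 0.15, adjusted p = 0.108). ESPL1, the separase protease that cuts cohesin, had 33.2, 42.7 and 87.8 CPM in IVD co-culture and 51.3, 77.6 and 97.8 CPM in IVD mono-culture (log2 fold change -0.55, SE 0.18, adjusted p = 0.0675). The spindle assembly factor TPX2 had 102, 133 and 169 CPM in IVD co-culture and 142, 161 and 191 CPM in IVD mono-culture (log2 fold change -0.33, SE 0.11, adjusted p = 0.0621). All 3 had overlapping groups. KIF20A and KIF23 are kinesins of the central spindle. KIF20A had 65.0, 90.8 and 120 CPM in IVD co-culture and 93.5, 109 and 145 CPM in IVD mono-culture (log2 fold change -0.36, SE 0.13, adjusted p = 0.0767). KIF23 had 38.7, 54.2 and 73.0 CPM in IVD co-culture and 58.9, 67.0 and 94.6 CPM in IVD mono-culture (log2 fold change -0.40, SE 0.14, adjusted p = 0.0764). Both overlapped.

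No member of the replication or nucleotide roles passed. RRM2, the ribonucleotide reductase subunit that limits deoxynucleotide supply, had 42.3, 74.4 and 115 CPM in IVD co-culture and 60.6, 114 and 232 CPM in IVD mono-culture (log2 fold change -0.78, SE 0.26, adjusted p = 0.063). The sliding clamp PCNA had 50.1, 60.9 and 79.3 CPM in IVD co-culture and 59.1, 80.0 and 95.5 CPM in IVD mono-culture (log2 fold change -0.28, SE 0.16, adjusted p = 0.297). The smallest p among the 10 replication genes was that of MCM4, a subunit of the replicative helicase, with 55.0, 68.7 and 91.8 CPM in IVD co-culture and 71.0, 79.3 and 141 CPM in IVD mono-culture (log2 fold change -0.36, SE 0.16, adjusted p = 0.162). The 10 replication genes were divided evenly, 5 positive and 5 negative.

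**Figure D2:**
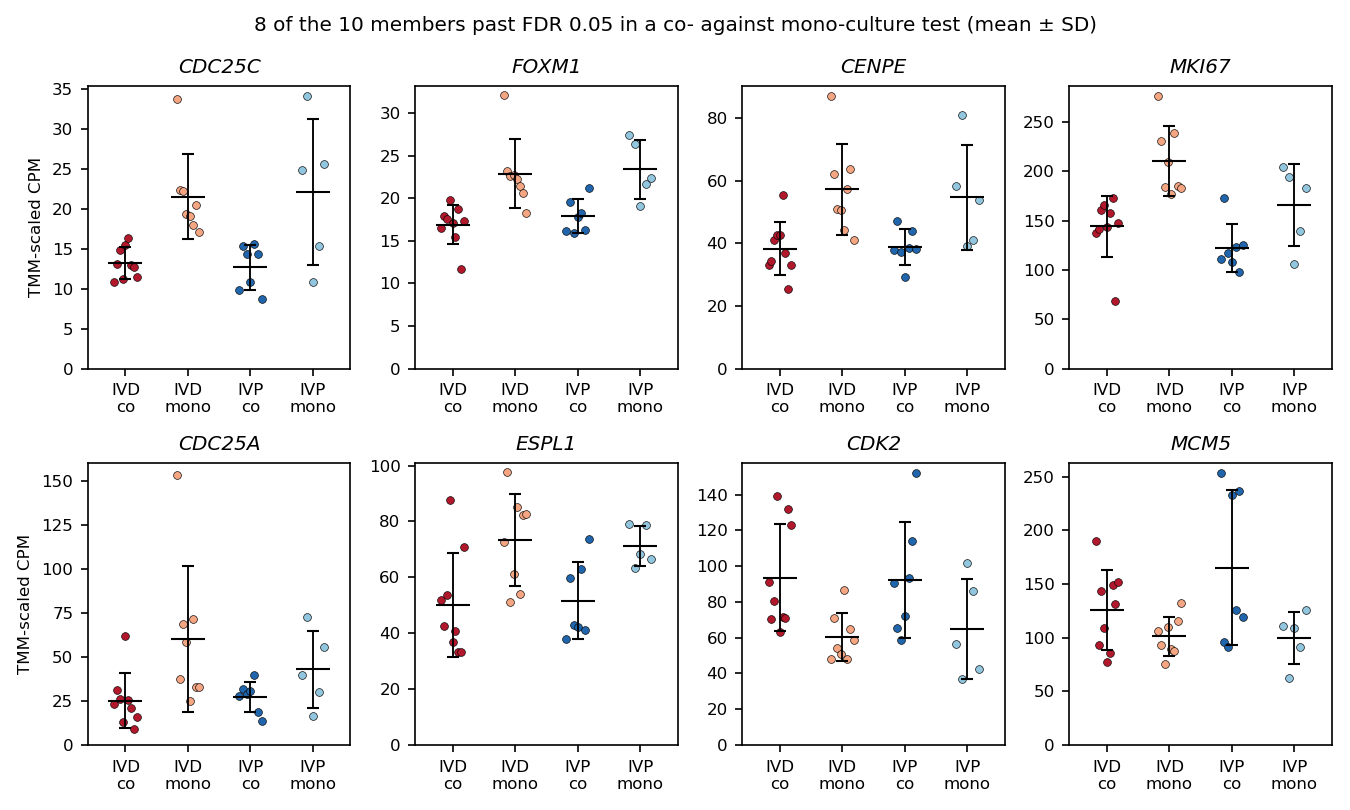
CPM of 8 members in each conceptus library, in panels by gene and columns by group, with the mean and SD. CDC25C and MKI67 have no overlap between IVD co-culture and IVD mono-culture, while the other members overlap.

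The 5 calls in IVD conceptuses depended on single libraries and on the model. Without IVD mono-culture replicate 1 none of the 5 passed (adjusted p 0.0593 to 0.111), and without IVD co-culture replicate 8 none passed (adjusted p 0.0524 to 0.0782). IVD co-culture replicate 4 acted the other way, with 10 members lower in its absence. Leaving out IVD mono-culture replicate 2, 4 or 6 gave 3 lower members, IVD co-culture replicate 1 gave 2 and IVD co-culture replicate 7 gave 1. Leaving out all sections of a conceptus gave 0 lower members for conceptus 5, 8, 26 or 47, 1 for conceptus 71, 2 for conceptus 22 or 24 and 3 for conceptus 66. With the conceptus as a block, CDC25A alone passed (log2 fold change -0.89, adjusted p = 0.0489), and the other 4 had adjusted p of 0.0913 to 0.115 with log2 fold changes of -0.58 to -0.36. With the sections of a conceptus summed within each culture, 7 members were lower (FOXM1, MKI67, CDC25C, KIF23, ESPL1, TPX2 and CENPE, adjusted p 0.0186 to 0.048) and CDC25A did not pass (log2 fold change -1.11, adjusted p = 0.0861), so which members passed depended on how the conceptus entered the model. The counts of lower members under summed sections and on leaving out libraries are not set beside all genes under the same fits. They therefore do not set the members apart from other genes. Co-culture libraries also differed from mono-culture libraries in composition. The log2 scaling factor ran from -0.392 to 0.187 (median -0.00583) in IVD co-culture and from -0.00216 to 0.345 (median 0.144) in IVD mono-culture. When that factor entered as a covariate, 0 of the 5 passed (adjusted p 0.109 to 0.201), with log2 fold changes of -0.81 to -0.35. The 2 red cell markers HBA and HBM summed to 1.15 to 70.3 CPM (median 34.9) in IVD co-culture and 0.5 to 2.07 CPM (median 1.01) in IVD mono-culture, and their part in these differences was not tested.

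Sections of one conceptus in both cultures were then compared within the conceptus, which removes differences between conceptuses. FOXM1 and ESPL1 were lower in co-culture in all 11 conceptuses and MAD2L1 was higher in all 11, and CENPE was lower in all 11 with TMM scaling and in 10 of 11 with RLE scaling (exact p = 0.00293). Over all genes tested, 3.05% were lower in all 11 and 2.25% were higher. In the 7 IVD conceptuses alone, 14 members (29.8%) were lower in all 7 and 2 were higher, against 7.65% and 7.19% of all genes. The 14 were CDC25A, MCM2, RRM2, CDC25C, FOXM1, PLK1, CENPE, CDC20, ESPL1, KIF20A, KIF23, TPX2, ANLN and MKI67, and the 2 higher members were CDK2 and MAD2L1. With RLE scaling 13 were lower in all 7, against 7.19% of all genes, since PLK1 was then lower in 5 of 7, and the 2 higher members were the same, against 8.1%.

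The mean difference of log2 CPM, co- minus mono-culture, was -0.37 ± 0.21 for FOXM1, -0.46 ± 0.34 for CENPE and -0.55 ± 0.31 for ESPL1 (SD, n = 11 conceptuses). For MAD2L1 it was 0.32 ± 0.25, and single conceptuses lay between 0.04 and 0.71. With TMM scaling, an exact two-sided sign-flip permutation test gave each of these 4 genes p = 0.000977, the smallest that 11 conceptuses allow, with an adjusted p over all genes of 0.0185. Under this exact test, 12 members (25.5%) passed the FDR of 0.05, against 21.7% of all genes. The other 8 were CDK2, which was higher in 10 of 11 conceptuses (mean 0.48 ± 0.33), and MKI67, TPX2, KIF23, ANLN, KIF20A and CDC25C, each lower in 10 of 11, and CENPF, lower in 9 of 11. The share past the test was close to that of all genes, so it does not set the members apart. CDC25A was lower in 10 of 11 conceptuses and did not pass (mean -0.67 ± 0.74, adjusted exact p = 0.0711). With 7 IVD conceptuses the smallest exact p is 0.0156 and with 4 IVP conceptuses 0.125, and no member passed after adjustment in either.

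The conceptuses differed in how many members were lower. In IVD conceptuses, between 27 (conceptus 50) and 40 (conceptus 66) of the 47 were lower in co-culture. In IVP conceptuses, 33 were lower in conceptus 24, 26 in conceptus 23, and 19 in each of conceptuses 62a and 62b, which came from one recipient. Among all genes, 49.8% to 55.7% were lower in each conceptus. Conceptus 62a was the single exception for CDC25C (difference 0.53), MKI67 (0.22), CDC25A (1.26) and CDK2 (-0.13).

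**Figure D3:**
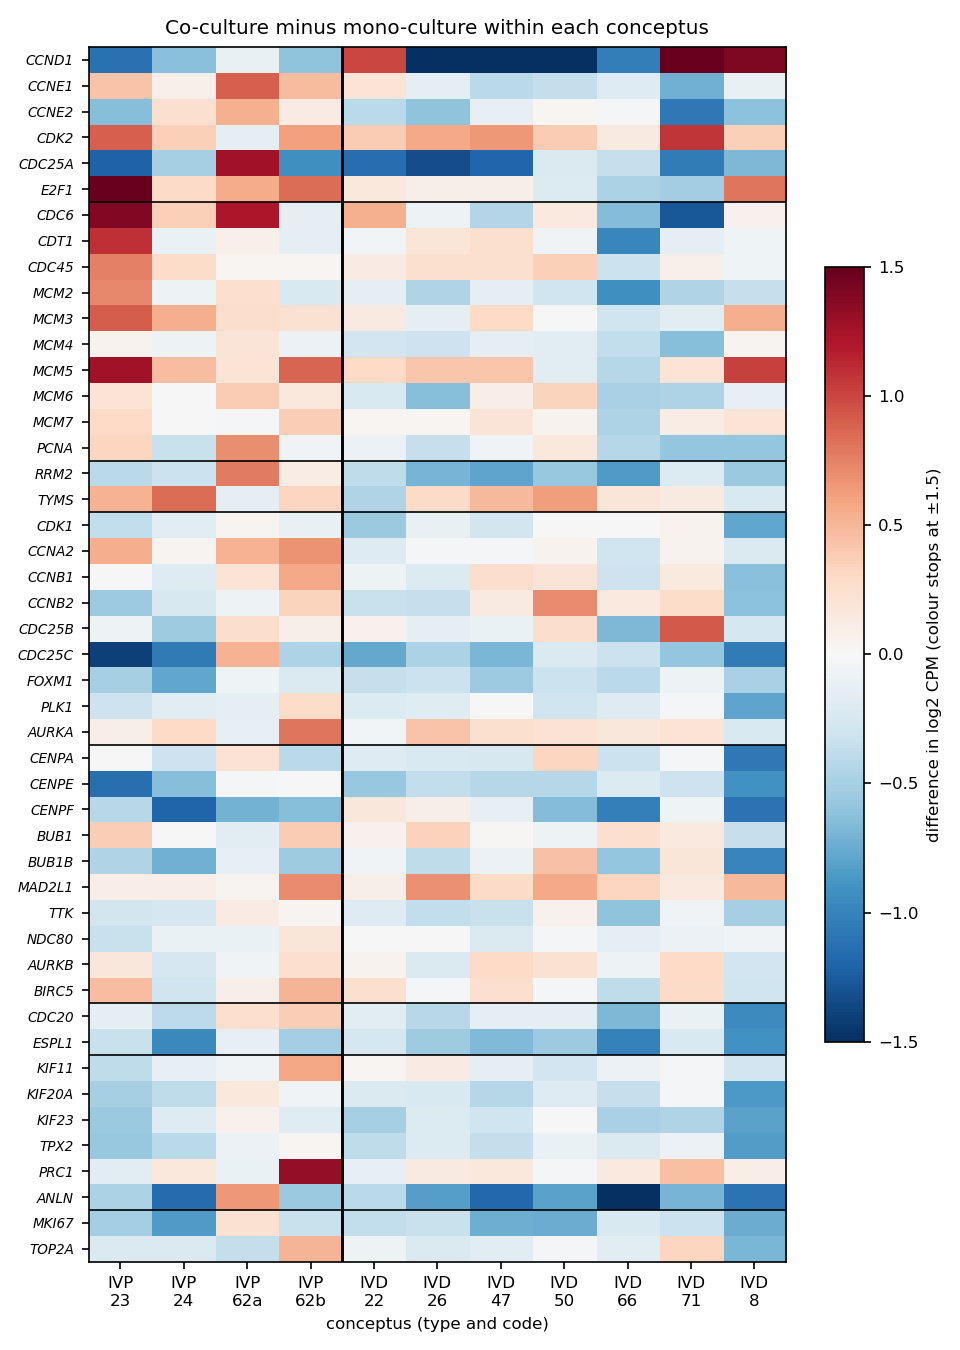
Heat map of the difference of log2 CPM, co- minus mono-culture, for the 47 members (rows, by role) in each of the 11 conceptuses in both cultures (columns, 4 IVP and 7 IVD conceptuses), with colours capped at 1.5 on either side. With the TMM scaling drawn, FOXM1, CENPE and ESPL1 are negative in every column, though with RLE scaling CENPE is positive in 1 IVP conceptus, and MAD2L1 is positive in every column.

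In IVP conceptuses, the same comparison of co- with mono-culture called no member, and 0% of all genes passed, in either direction. At an unadjusted p under 0.05, 6 members (12.8%) had a positive and 5 (10.6%) a negative log2 fold change, against 8.59% and 9.69% of all genes. The median over members was 0.03 and that over all genes -0.05, with 24 members positive and 23 negative. No member had groups that did not overlap, against 0.659% of all genes. With DESeq2, CDC25C was lower (log2 fold change -0.79, adjusted p = 0.0384) and the other 46 did not pass. CDC25C also passed in edgeR without IVP mono-culture replicate 3 (log2 fold change -0.98, adjusted p = 0.0355). The share of all genes called under these alternatives is not given here, so these calls do not set CDC25C apart from other genes.

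For CDC25C, IVP co-culture had 8.68, 14.3 and 15.5 CPM, and the 5 IVP mono-culture libraries had 24.8, 34.1, 10.8, 15.3 and 25.6 CPM. The values of 10.8 and 15.3 CPM, from conceptuses 62a and 62b, lay within the co-culture range, and the log2 fold change was -0.80 (SE 0.22, adjusted p = 0.142). FOXM1 had 15.9, 17.8 and 21.3 CPM in IVP co-culture and 27.5, 26.4, 19.1, 21.6 and 22.5 CPM in IVP mono-culture (log2 fold change -0.39, SE 0.14, adjusted p = 0.155). CENPE had 29.1, 38.3 and 47.0 CPM in IVP co-culture and 58.4, 80.8, 39.1, 41.2 and 53.8 CPM in IVP mono-culture (log2 fold change -0.49, SE 0.19, adjusted p = 0.182). MKI67 in IVP co-culture had 98.1, 117 and 173 CPM, and its IVP mono-culture libraries had 205, 195, 106, 140 and 183 CPM (log2 fold change -0.44, SE 0.19, adjusted p = 0.217). These 4 log2 fold changes had the sign of those in IVD tissue, but in each gene the mono-culture library of conceptus 62a fell inside the range of co-culture.

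Other members of the IVP comparison leaned the opposite way without passing. CCNA2, cyclin A2 of S and G2 phase, had 45.4, 66.5 and 102 CPM in IVP co-culture and 61.1, 52.7, 46.2, 44.7 and 59.8 CPM in IVP mono-culture (log2 fold change 0.45, SE 0.15, adjusted p = 0.152). E2F1, the transcription factor of S phase entry, had 5.77, 13.8 and 27.5 CPM in IVP co-culture and 8.56, 4.04, 9.36, 5.32 and 7.59 CPM in IVP mono-culture (log2 fold change 0.92, SE 0.33, adjusted p = 0.16). MCM5, a helicase subunit, had 91.6, 126 and 254 CPM in IVP co-culture and 111, 62.2, 109, 91.6 and 126 CPM in IVP mono-culture (log2 fold change 0.72, SE 0.26, adjusted p = 0.16). In each of the 3 genes, high co-culture libraries lay above every mono-culture library while others lay among them. The median log2 scaling factor was -0.288 in IVP co-culture and 0.193 in IVP mono-culture. The highest values of the 3 genes were in IVP co-culture replicates 1, 4 and 6, with factors of -0.29, -0.35 and -0.425. Replicate 5, with a factor of -0.0961, also lay above every mono-culture library for CCNA2 and E2F1. Replicate 7, with a factor of -0.288, was not among the high libraries. The part of the scaling factor in these values was not tested. Of the 10 replication genes, 9 had a positive log2 fold change (median 0.16). CDC45, which joins the helicase to the fork, had 24.5, 28.7 and 34.8 CPM in IVP co-culture and a highest value of 27.1 CPM in IVP mono-culture (log2 fold change 0.28, SE 0.12, adjusted p = 0.22). TYMS, thymidylate synthase, had 37.8, 46.7 and 59.1 CPM in IVP co-culture and at most 41.8 CPM in IVP mono-culture (log2 fold change 0.47, SE 0.22, adjusted p = 0.259).

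Several members used as proliferation markers had log2 fold changes near 0 in IVP tissue. TOP2A gave 0.03 (SE 0.19), CDC20 0.07 (SE 0.18), CDK1 -0.09 (SE 0.18), PCNA 0.14 (SE 0.19) and CCNB1 0.14 (SE 0.15), with adjusted p of 0.672 to 0.958. CDC25A gave -0.65 (SE 0.43, adjusted p = 0.43) and CDC25B -0.08 (SE 0.18, adjusted p = 0.862). CCND1 gave -0.92 (SE 0.79, adjusted p = 0.573), with 0.591, 1.78 and 14.4 CPM in IVP co-culture and 4.72, 6.41, 3.62, 2.15 and 21.4 CPM in IVP mono-culture.

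The average of the IVD and IVP changes, which weights both types equally, gave the most calls. CDC25C, FOXM1, CENPE, MKI67, ESPL1, CDC25A, TPX2 and KIF20A were lower in co-culture, and CDK2 and MCM5 were higher. The background of this comparison was wide, with 9.69% of all genes lower and 9.16% higher. The 10 members were 21.3% of 47, so their share was near that of all genes, 18.9%.

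The average log2 change was -0.75 (SE 0.14, adjusted p = 0.00139) for CDC25C, and leaving out any of the 29 libraries did not end that call. The same held for FOXM1 (-0.41, SE 0.09, adjusted p = 0.00318), CENPE (-0.54, SE 0.12, adjusted p = 0.00505), MKI67 (-0.49, SE 0.12, adjusted p = 0.00713) and ESPL1 (-0.51, SE 0.14, adjusted p = 0.0155). In IVP tissue ESPL1 had 38.1, 43.1 and 73.8 CPM in co-culture and 79.1, 63.4, 68.5, 78.6 and 66.7 CPM in mono-culture, so that its groups overlapped there too. These 5 genes encode a phosphatase, a transcription factor, a kinetochore motor, a chromosome coat protein and a protease of anaphase, from 4 different roles. Of them, only ESPL1 lost its call when a whole conceptus was left out (conceptus 24, adjusted p = 0.0718).

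CDC25A had an average log2 change of -0.95 (SE 0.28, adjusted p = 0.0179) and TPX2 of -0.27 (SE 0.08, adjusted p = 0.027), and without IVP mono-culture replicate 2 neither passed (adjusted p 0.0526 and 0.0712). For CDK2, IVP co-culture had 58.5, 90.5 and 152 CPM and IVP mono-culture 56.7, 36.7, 102, 86.0 and 42.8 CPM. CDK2 was higher by 0.57 (SE 0.17, adjusted p = 0.0219) and did not pass without IVP mono-culture replicate 2 or 5 (adjusted p 0.0536 and 0.0539). MCM5, whose IVD libraries had 77.5, 132 and 190 CPM in co-culture and 75.7, 99.7 and 132 CPM in mono-culture, was higher by 0.52 (SE 0.17, adjusted p = 0.0318), and leaving out IVP mono-culture replicate 2 or 4 or IVP co-culture replicate 1, 4 or 6 ended its call (adjusted p 0.0509 to 0.0736). KIF20A, at -0.30 (SE 0.10, adjusted p = 0.0337), lost its call on leaving out any of 9 libraries: IVD co-culture replicate 8, IVD mono-culture replicate 1 or 2, IVP co-culture replicate 1, 4 or 6, or IVP mono-culture replicate 1, 2 or 5 (adjusted p 0.0506 to 0.097). With the conceptus as a block, TPX2, KIF20A and MCM5 did not pass (adjusted p 0.0774, 0.0961 and 0.0642) and the other 7 did (adjusted p 0.0185 to 0.0411). With the sections of a conceptus summed within each culture, CDC25A did not pass and the other called members did. With the log2 scaling factor as a covariate no member passed, and 2 of all genes did.

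IVP conceptuses were compared with IVD conceptuses within each culture. In mono-culture, no member passed in edgeR or DESeq2, and 0% of all genes did in edgeR. Groups that did not overlap were found in no member and in 0.1% of all genes. The median log2 fold change was -0.03 over members and -0.02 over all genes. At an unadjusted p under 0.05, where 1.36% of all genes were positive and 0.715% negative, there was 1 member, CENPA, the histone H3 variant of centromeres, with 31.1, 30.6, 31.7, 35.8 and 39.2 CPM in IVP mono-culture and 37.8, 44.4 and 54.9 CPM in IVD mono-culture (log2 fold change -0.44, SE 0.16, adjusted p = 1).

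In co-culture, no member passed in IVP against IVD with edgeR or DESeq2, and 0.0251% of all genes did with edgeR. Libraries did not overlap in no member and in 0.0251% of all genes. The median log2 fold change of the members was 0.11, against -0.06 over all genes, with 37 members positive and 10 negative. All 10 replication genes were positive (median 0.21). At an unadjusted p under 0.05, 8 members (17%) had a positive log2 fold change and 1, CENPA, a negative one (-0.46, SE 0.14, adjusted p = 0.201), against 6.81% and 6.8% of all genes.

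CCNA2 had the smallest p, with 45.4, 66.5 and 102 CPM in IVP co-culture and 44.6, 51.3 and 62.0 CPM in IVD co-culture (log2 fold change 0.46, SE 0.13, adjusted p = 0.173), and it passed without IVP co-culture replicate 3 (log2 fold change 0.55, adjusted p = 0.0375). The share of all genes called without that library is not given here, so this call does not set CCNA2 apart from other genes. CDC20 had 77.3, 114 and 165 CPM in IVP co-culture and 62.1, 77.7 and 109 CPM in IVD co-culture (log2 fold change 0.49, SE 0.16, adjusted p = 0.208). PRC1, which bundles microtubules of the central spindle, had 141, 243 and 420 CPM in IVP co-culture and 136, 186 and 225 CPM in IVD co-culture (log2 fold change 0.57, SE 0.18, adjusted p = 0.212). All 3 overlapped at the low end and reached higher in IVP co-culture.

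E2F1 had 5.77, 13.8 and 27.5 CPM in IVP co-culture, against 5.04, 6.30 and 11.1 CPM in IVD co-culture (log2 fold change 0.86, SE 0.28, adjusted p = 0.212). CDC6, which loads the helicase at origins, had 4.87, 8.15 and 28.9 CPM in IVP co-culture, against 4.62, 5.89 and 11.5 CPM in IVD co-culture (log2 fold change 0.94, SE 0.33, adjusted p = 0.241). RRM2 had 61.3, 121 and 196 CPM in IVP co-culture, against 42.3, 74.4 and 115 CPM in IVD co-culture (log2 fold change 0.75, SE 0.27, adjusted p = 0.241). AURKA, the centrosomal mitotic kinase, had 90.8, 134 and 183 CPM in IVP co-culture, against 81.2, 95.5 and 128 CPM in IVD co-culture (log2 fold change 0.41, SE 0.14, adjusted p = 0.225). The 4 genes shared the same form, an IVP range that began within the IVD range and extended beyond it. The median log2 scaling factor also differed between these groups, at -0.288 in IVP co-culture and -0.00583 in IVD co-culture.

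**Figure D4:**
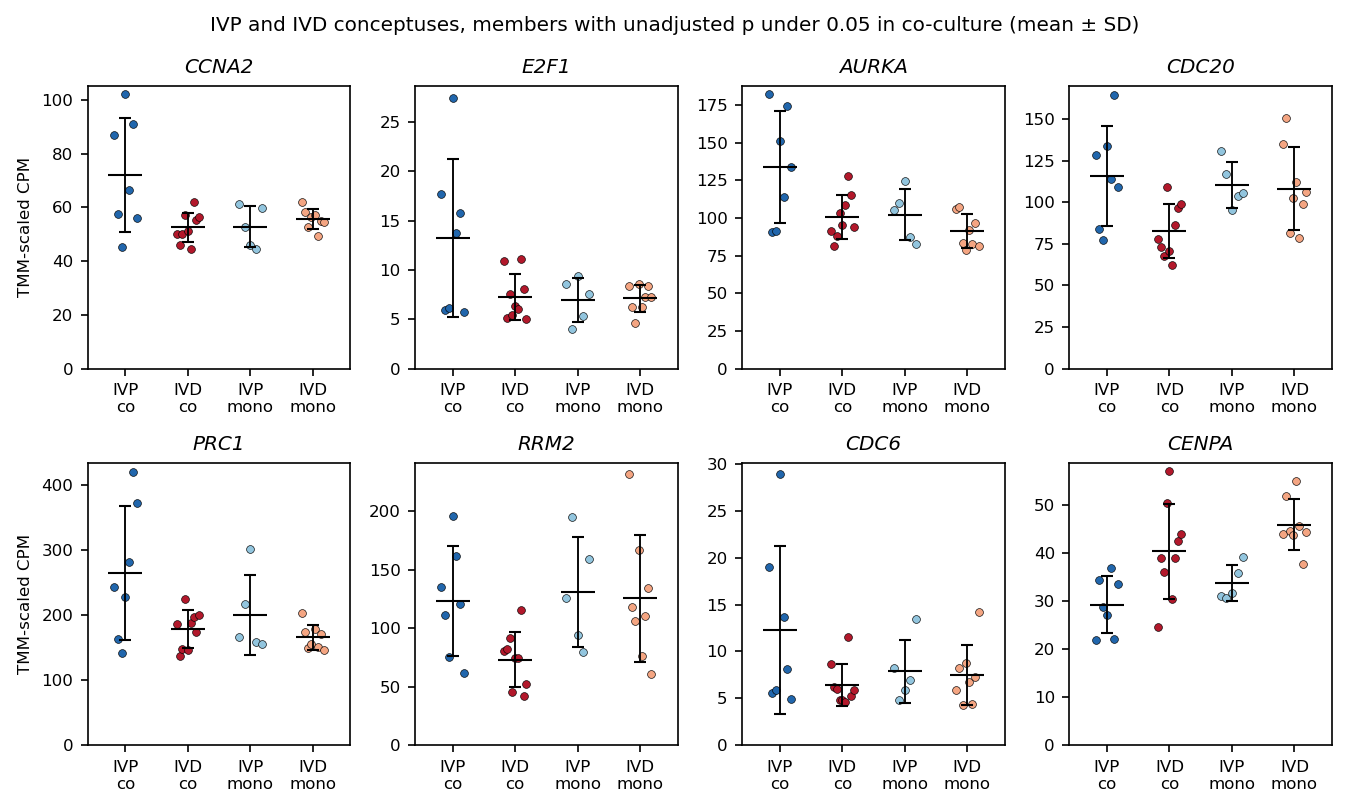
CPM of 8 members with low unadjusted p for IVP against IVD conceptuses in co-culture, by library and group, with the mean and SD. IVP co-culture libraries are spread more widely than IVD co-culture libraries in every panel but CENPA, which is lower in IVP co-culture. In each panel some IVP co-culture libraries lie within the range of IVD co-culture.

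Whether co-culture changed the members differently in the types was tested as the difference of changes, IVP minus IVD. No member passed in edgeR or DESeq2, and 0% of all genes did in edgeR. At an unadjusted p under 0.05 there were 2 members, CCNA2 (0.53, SE 0.20) and E2F1 (0.89, SE 0.43), both positive and with an adjusted p of 1, against 0.953% of all genes positive and 0.809% negative. The median difference was 0.17 over the members and -0.03 over all genes, with 37 members positive. The 10 replication genes were all positive (median 0.37), as were the 6 spindle genes (median 0.22), but the difference uses the same libraries as the comparisons above, and conceptuses 62a and 62b from one recipient make up 2 of the 4 IVP conceptuses in both cultures.

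A wider set of 199 further genes of the cell cycle, in 9 lists, gave 198 that were tested. In IVD co- against mono-culture, 21 were lower (10.6% of 198, against 3.22% of all genes) and 4 higher (2.02%, against 3.11%), with a median log2 fold change of -0.16. Cohesin and condensin, the complexes that hold and fold sister chromatids, had 8 of 21 genes lower (38.1%) and none higher (median -0.37). They included NIPBL, which loads cohesin (log2 fold change -0.69, SE 0.13, adjusted p = 0.00578), the cohesin subunit STAG1 (-0.82, SE 0.18, adjusted p = 0.0115) and WAPL, which releases it (-0.42, SE 0.10, adjusted p = 0.0165). Origin licensing and fork genes had 6 of 45 lower and 1 higher, among them the flap nuclease FEN1 (-0.50, adjusted p = 0.0141), the polymerase subunits POLD3 (-0.79, adjusted p = 0.0183) and POLE (-0.85, adjusted p = 0.0217), and POLD2, which was higher (0.53, adjusted p = 0.0489).

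The remaining lists had few calls in IVD tissue. In the anaphase-promoting complex, CDC23 (-0.66, adjusted p = 0.0105) and ANAPC7 (-0.40, adjusted p = 0.0465) were lower, out of 18. In a list of inhibitors of cyclin-dependent kinases and other genes of cell cycle arrest, the inhibitor CDKN2D (1.41, adjusted p = 0.0313) and CCNG2 (1.16, adjusted p = 0.0328), a cyclin linked to arrest, were higher. CLSPN, an adaptor of the replication checkpoint, was the 1 of 9 checkpoint genes that was lower (-0.89, adjusted p = 0.0236). LIN54 was the 1 of 7 genes of the DREAM complex (-0.61, adjusted p = 0.0326), E2F6 and TFDP1 were the 2 of 20 in the G1 list (-0.59 and -0.46, adjusted p 0.0306 and 0.0497), and NUF2 was the 1 of 30 further kinetochore genes, and was higher (0.48, adjusted p = 0.0281). Of 29 further spindle and cytokinesis genes none passed, with a median of -0.25.

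In IVP co- against mono-culture none of the 198 passed in edgeR, with 15 positive (7.58%) and 38 negative (19.2%) at an unadjusted p under 0.05, against 8.59% and 9.69% of all genes. In the average of both types, 49 of the 198 were lower (24.7%, against 9.69% of all genes) and 14 higher (7.07%, against 9.16%). Kinetochore genes then had 10 lower (33.3%) and 1 higher of 30, spindle and cytokinesis genes 9 lower (31%) and 1 higher of 29, and cohesin and condensin 8 lower of 21 (38.1%). Origin and fork genes were mixed, with 11 lower (24.4%) and 7 higher (15.6%) of 45. These shares are descriptions, and no list was tested against the rest. GADD45B, a stress and growth arrest gene, was higher (1.228, SE 0.31, adjusted p = 0.00827).

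Levels in the endometrial explants give the setting of the conceptus values. Tissue and sequencing batch cannot be told apart, since all conceptus libraries carried one batch date and all endometrial libraries another, and the tables were aligned with different tools, so levels were set side by side without a test. The ratio of the IVP co-culture median to the endometrial median was 40 at the median of 46 members, and 0.929 at the median of the 15881 genes in both tables. In 41 of the 46 (89.1%), all 12 endometrial libraries lay below all 7 IVP co-culture libraries, against 17.7% of all genes. The 5 others were CCNB1, CDC25A, CDC6, CCNE2 and CCND1.

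CDC20 had the widest ratio, with 77.3, 114 and 165 CPM in IVP co-culture and 0.147, 0.347 and 5.1 CPM in endometrium (329-fold at the medians). MKI67 had 98.1, 117 and 173 CPM in IVP co-culture and 0.459, 1.13 and 20.7 CPM in endometrium. TOP2A had 180, 227 and 361 CPM in IVP co-culture and 0.63, 1.69 and 19.9 CPM in endometrium. In these 3 markers of cycling cells the lowest conceptus library was above the highest endometrial library.

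FOXM1 had 15.9, 17.8 and 21.3 CPM in IVP co-culture and 0.172, 0.388 and 4.11 CPM in endometrium, and CDC25C had 8.68, 14.3 and 15.5 CPM in IVP co-culture and 0.214, 0.36 and 1.15 CPM in endometrium. PCNA, which also serves DNA repair, was nearer, with 53.4, 81.4 and 142 CPM in IVP co-culture and 25.3, 30.3 and 46.3 CPM in endometrium (2.69-fold). CCND1 had the lowest ratio, with 0.591, 1.78 and 14.4 CPM in IVP co-culture and 8.78, 14.4 and 26.9 CPM in endometrium (0.124-fold). CCNE2 was nearly level, with medians of 6.61 CPM in IVP co-culture and 6.82 CPM in endometrium (0.969-fold). TTK was listed at 0 in 2 endometrial libraries.

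**Figure D5:**
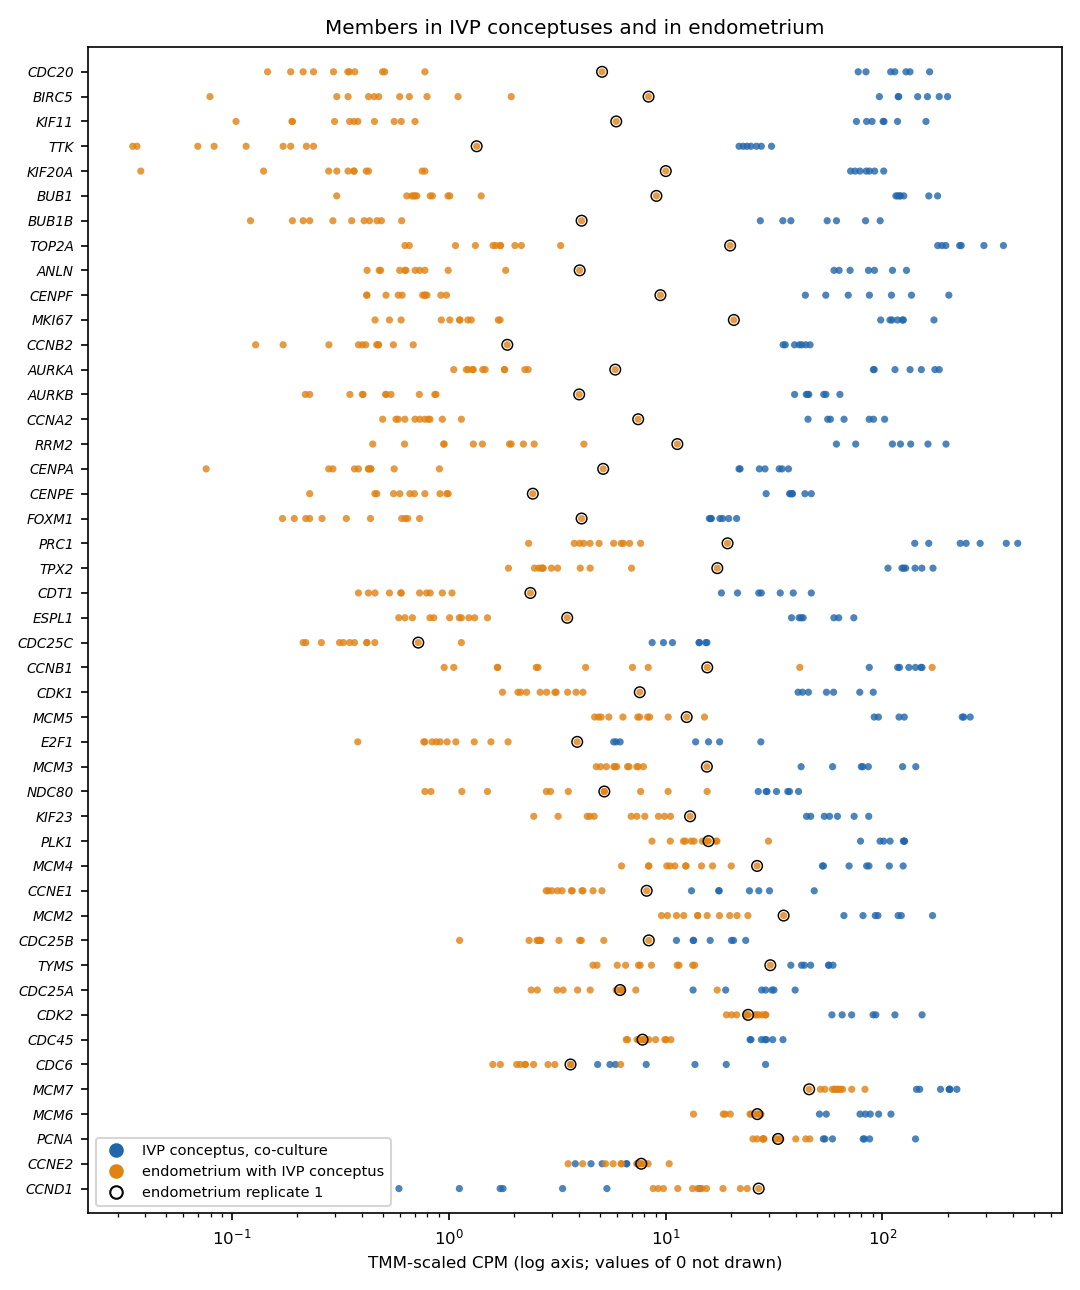
CPM of 46 members on a log axis in IVP co-culture conceptus libraries and in endometrial libraries cultured with IVP conceptus, with endometrium replicate 1 circled. The groups are apart in 41 members, and CCND1 is higher in endometrium.

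Endometrium replicate 1, from uterus 15, stood apart. It was the highest of the 12 for 33 of 46 members, with a median ratio of 3.93 to the median of the others, while the other 11 had ratios of 0.758 to 1.29. MKI67 was 20.7 CPM in it and at most 1.73 CPM in the others. Its stromal markers summed to 14200 CPM (2970 to 8810 CPM in the others) and its trophoblast markers to 767 CPM, within the 223 to 1190 CPM of the others, and the part of these in its values was not tested. In endometrium KRT8, KRT18 and GATA2 had medians of 318.6, 158.3 and 119.8 CPM, against 0.04 for TKDP1 and 0 for PAG2. The trophoblast sum therefore cannot show whether conceptus tissue was present. Without replicate 1, the median ratio was 44.1 and 41 members remained apart, an alternative chosen after its values were seen. In the 7 wells that gave both tissues, 43 to 45 of the 46 members were higher in the conceptus section than in its own explant, with median ratios of 25.6 to 56.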

How the data were processed

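Total RNA from cultured Day 16 bovine conceptus sections and endometrial explants was poly(A) enriched and sequenced from a stranded kit. The authors deposited raw counts of reads per gene, 1 table per tissue. Per the submitters' processing notes, Trimmomatic, HISAT2, STAR, featureCounts and the ARS-UCD1.2 build were used, and the paper assigns HISAT2 to conceptus and STAR to endometrium. Versions and the strand setting are not given in the sources used here. The smallest mean count in the conceptus table was 2.48. In the endometrial table, 28 columns that matched no sample were not used.

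Samples were grouped by title. IVP co-culture replicate 1 carries a treatment label that names medium alone. Counts were used as deposited in edgeR 4.0.16 under R 4.3.3. Low counts were removed by filterByExpr at its defaults (10 and 15), followed by TMM factors and a quasi-likelihood fit with 1 mean per group over 29 libraries, at an FDR of 0.05. A prior count of 1 entered the log2 CPM, and printed CPM used the TMM library sizes. Within conceptuses, log2 CPM differences (2 co-culture sections averaged) were tested by exact sign flips. The scripts were tested on simulated data. Libraries of a group were compared pairwise and none were duplicates.

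Members with full values were those past the FDR in any comparison, the smallest p per role and comparison, and MKI67, CDC20, CDC25A, CDC25B, CDC25C, CDK1, CCNB1, CCND1, TOP2A, PCNA and FOXM1. MAD2L1, AURKA, ANLN, CENPF and the members listed by direction were named beyond that rule, chosen after their values were seen. Of the wider lists, up to 3 genes past the FDR per list were named. One result of these lists is not reported here. The members and lists were chosen with earlier results of these data known.

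Pairing was checked over the 1000 most variable genes: the 16 co- and mono-culture pairs of one conceptus all had r above 0.1 (median 0.588, 0.12 to 0.817), so the conceptus was taken as the pairing. Alternatives were RLE and upper quartile factors, other filters, the compared groups alone, summed sections, blocks, limma 3.58.1 voom, DESeq2 1.42.0, a factor of unwanted variation, the scaling factor as a covariate, uterus code 14 alone, and leaving out each library and conceptus.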

Additional observations from a re-analysis of the deposited data

Results flagged for a closer look

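In groups of 4 to 10 libraries, the values of 28 members were screened for a highest or lowest library set off from the rest by Dixon's ratio, and 11 of 112 group values exceeded its 95% limit. Chance flags about 1 in 20 groups. IVD mono-culture replicate 1, from conceptus 5, which was in mono-culture only, was far above the next library for CDC25A (153.2 CPM, next 71.8), CDC25C (33.77 CPM, next 22.29) and FOXM1 (32.2 CPM, next 23.19). IVD co-culture replicate 5 was far above the next for CDC25A (61.81 CPM, next 31.24) and TYMS (91.64 CPM, next 61.35). IVD co-culture replicate 8 was far below the next for MKI67 (68.35 CPM, next 137.7). CDC6 stood high in IVD mono-culture replicate 8 (14.18 CPM, next 8.766). In IVP tissue, MKI67 (172.7 CPM, next 124.8) and CCND1 (14.37 CPM, next 5.369) stood high in co-culture replicate 2, PCNA in co-culture replicate 4 (142.0 CPM, next 87.24), and CCND1 in mono-culture replicate 5 (21.43 CPM, next 6.405).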

How the results depend on the processing

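No member that passed in a comparison changed direction under an alternative that was run, while the median of the members in IVP co- against mono-culture, near 0, turned negative without conceptus 62b (-0.05), without IVP co-culture replicate 4 or 6 (-0.02 each), with the title number block (-0.03), the uterus block (-0.01) or the scaling factor as a covariate (-0.04), and in uterus code 14 alone (-0.06). Of 6249 values of members under an alternative, 5996 kept their side of the threshold, 159 lost a call and 94 gained one. Most of these values were of members and comparisons without a call in the main fit. They also include within-conceptus changes, which were judged at an unadjusted exact p of 0.05. The number kept therefore does not measure how stable the calls were. In IVD co- against mono-culture (5 members lower, 0 higher), the lower members numbered 1 with the conceptus as a replicate block (CDC25A), 0 with the uterus code as a block, 12 with voom and a random conceptus block, 10 with DESeq2, 13 with 1 factor of unwanted variation, 0 with the scaling factor as a covariate and 0 in uterus code 14 alone, where the median log2 fold change was -0.42. All genes called in that comparison numbered 1009, against 206 with the conceptus block, 8 with the uterus block, 1941 with DESeq2, 1843 with voom and 2346 with the factor. CDK2 was the 1 higher member under upper quartile factors, the compared groups alone, voom, DESeq2, the factor and a minimum mean CPM of 1. In IVP tissue DESeq2 gave 1 lower member. For the average (8 lower, 2 higher), the higher members numbered 4 with a mean CPM of at least 1 and with DESeq2, 1 with the conceptus block, and 0 with the title number block, the uterus block, the covariate and uterus code 14, and the lower members 3 with the uterus block and 0 with the covariate and uterus code 14. All genes called are not set beside these counts for the average, so the counts do not set the members apart. Title numbers do not pair the samples (4 of 13 pairs above 0.1, median r -0.32). The conceptus block could not be fitted for IVP against IVD, where it is confounded with type.

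Leaving out a library or conceptus moved the median log2 fold change of the members within -0.25 to -0.13 for IVD co-culture, -0.05 (without conceptus 62b) to 0.11 for IVP co-culture, 0.06 to 0.16 for IVP against IVD in co-culture, -0.09 to -0.01 in mono-culture, 0.08 to 0.23 for the difference and -0.13 to -0.06 for the average. It moved the lower members from 0 to 10 in IVD tissue, 0 to 1 in IVP tissue (1 without IVP mono-culture replicate 3) and 5 to 10 in the average. Higher members ran from 0 to 1 in IVD tissue, 0 to 1 for IVP against IVD in co-culture (1 without IVP co-culture replicate 3) and 0 to 4 in the average (0 without IVP mono-culture replicate 2, 4 without IVP mono-culture replicate 3 or IVP co-culture replicate 2). In every other case the counts stayed at 0. All genes under the same fits are not set beside these counts, so they do not set the members apart. In the average, leaving out a whole conceptus ended CDC25A (conceptus 23 or 62b), CDK2 (37 or 62b), MCM5 (8, 23, 26 or 62b), TPX2 (8, 23 or 24) and KIF20A (7 conceptuses). With 4 IVP conceptuses, 2 from one recipient, small changes in IVP tissue could not be detected.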

Other observations

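The spread of the members within groups was narrow beside that of other genes, which were not matched to them by expression level. The SD of log2 CPM within groups had a median of 0.33 over the 47 members and 0.57 over all genes tested, and it ran from 0.18 for CDC45 to 1.60 for CCND1. Among the members with the lowest mean log2 CPM (1.76 to 2.96), CCND1, CDC6 (0.66) and E2F1 (0.57) reached the median of all genes. CCNE2 (0.40) did not. Whether members are less variable than other genes of equal level was not tested.

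Uterus code 14 was the only single code of the titles with all 4 conceptus groups, 2 libraries each. CDC25C there had 9.79 and 15.3 CPM in IVP co-culture and 24.8 and 34.1 CPM in IVP mono-culture, and 10.8 and 14.9 CPM in IVD co-culture and 22.3 and 19.3 CPM in IVD mono-culture. FOXM1 had 16.1 and 19.6 CPM in IVP co-culture and 27.5 and 26.4 CPM in IVP mono-culture, and 16.5 and 17.6 CPM in IVD co-culture and 23.2 and 22.7 CPM in IVD mono-culture. In both types and both genes, each co-culture library was below each mono-culture library of that code. Both genes were picked because they were called from these same libraries. The share of all genes that separate in this way is not given, so this does not set the 2 genes apart. Conceptuses 23, 24 and 26 also had co-culture sections under uterus code 39, with 10.8, 14.3 and 12.9 CPM of CDC25C and 17.8, 15.9 and 18.7 CPM of FOXM1, and these too were below the mono-culture libraries of code 14 in their type. The log2 fold changes of the 5 members called in IVD tissue were -0.97 to -0.43 with code 14 alone, and 0 of all genes passed there (adjusted p 0.843 for these 5).

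CCNB1, cyclin B1, was 169.4 and 41.6 CPM in the 2 endometrial libraries of uterus 17 and at most 15.6 CPM in the other 10. The highest of these exceeded every conceptus library, whose range was 84.0 to 152.1 CPM. PLK1, a mitotic kinase, had a mean of 21.5 CPM in uterus 17 and a median of 14.2 CPM over the 12 libraries. That mean rested on endometrium replicate 2 (29.8 CPM), since replicate 3 of the same uterus had 13.1 CPM, below the median.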
